A study of Mus musculus with 105 samples.

Results

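Sp5, Axin2, Lef1, Tcf7, Cdx1, Nkd1, Notum and Lgr5, 8 genes used as readouts of canonical Wnt signaling, were followed while female mouse embryonic stem cells (mESCs) lost the inhibitors that hold them undifferentiated. The genes were chosen by name from 52016 rows of the bulk count tables and 34120 genes of the single-cell table. TX1072 is an F1 hybrid line with 1 chromosome set from C57BL6/J (B6) and 1 from Cast/EiJ (Cast), and its B6 X chromosome has a doxycycline-inducible promoter ahead of Xist. TXdXicB6 and TXdXicCast are TX1072 derivatives, each a single clone, that lack a region around the Xist locus on the B6 or on the Cast allele. All lines were kept with serum, leukemia inhibitory factor (Lif) and 2i, which is 3 µM CT-99021 against the kinase GSK3 and 1 µM PD0325901 against MEK. The medium was then changed to one with serum alone for 1, 2, 3 or 4 days, and day 0 is the culture before the change, so that the GSK3 inhibitor, the MEK inhibitor and Lif left together and their effects cannot be told apart. Each line and day has 3 bulk libraries, and single TX1072 cells were captured at the same days from 1 culture per day. The single cells came from the same population as TX1072 bulk replicate 1. Depth per bulk library ranged from 19827011 to 39628784 counts for TX1072, from 20246434 to 49962859 for TXdXicB6 and from 16906263 to 57920260 for TXdXicCast. Mitochondrial genes took 7.9% of counts in day 0 replicate 3 and 8.57% in day 3 replicate 2 of TX1072, more than in any other TX1072 library, and each fit was repeated without each replicate.

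In the canonical Wnt pathway, a destruction complex that contains GSK3 marks beta-catenin for degradation. A Wnt ligand bound to a Frizzled receptor, or an inhibitor of GSK3, stops this, and beta-catenin accumulates and joins DNA-bound factors of the TCF/LEF family at target genes. Many targets feed back on the pathway. Axin2 is a scaffold of the destruction complex, Notum is a secreted enzyme that removes the lipid from Wnt ligands, and Nkd1 is an intracellular inhibitor. Lgr5 is a receptor for R-spondins. Sp5 and Cdx1 are transcription factors, and Tcf7 and Lef1 are themselves TCF/LEF factors. GSK3 inhibition is part of the medium that keeps mESCs naive, where its main role is to relieve repression by Tcf7l1.

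The promoters of Sp5 and Axin2 are shown because these genes gave the clearest fall and return in TX1072, and because they differ in the letters that TCF/LEF factors are known to bind. Each sequence covers 250 bases before and 50 bases from the annotated start in RefSeq (GRCm38.p6, plus strand). That of Sp5 is chr2:70474673-70474972 and that of Axin2 is chr11:108920099-108920398. CTTTGAA was searched on both strands, as was its variant CTTTGAT with a final pyrimidine, and so were the forms with a T before the last base, which are CTTTGTA with a final purine or else CTTTGTT with a final pyrimidine. Matches are in capitals.
Sp5: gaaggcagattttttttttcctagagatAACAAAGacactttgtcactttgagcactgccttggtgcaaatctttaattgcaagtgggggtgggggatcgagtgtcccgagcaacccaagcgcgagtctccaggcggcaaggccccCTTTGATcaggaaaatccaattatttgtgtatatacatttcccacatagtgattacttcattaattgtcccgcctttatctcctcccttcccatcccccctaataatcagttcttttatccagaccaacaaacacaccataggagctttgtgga
Axin2: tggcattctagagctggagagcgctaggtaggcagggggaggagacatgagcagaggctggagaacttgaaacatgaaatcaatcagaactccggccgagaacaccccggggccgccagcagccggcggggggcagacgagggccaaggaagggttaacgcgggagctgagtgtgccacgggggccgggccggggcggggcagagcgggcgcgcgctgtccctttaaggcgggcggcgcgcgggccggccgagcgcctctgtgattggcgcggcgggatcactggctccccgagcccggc
The Sp5 sequence held CTTTGAT on the gene's strand with its first base 104 bases before the start, and CTTTGTT on the other strand beginning 222 bases before the start. The Axin2 sequence held none of the 4. Of 32851 promoters of this length, 16.9% held at least 1 of them and 3.73% held CTTTGAT. Promoters of 5 of the 8 genes (Sp5, Axin2, Lef1, Tcf7 and Nkd1) were searched, and those of the other genes were not. Besides Sp5, a match was found in 1 of the 4 Lef1 promoters (CTTTGTA). These matches are descriptions of letters, and the search window does not reach introns or distal elements.

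In TX1072, 6 of the 7 genes that could be tested were lower at day 1 than at day 0 and 1, Lef1, was higher (edgeR quasi-likelihood test over all genes, two-sided, adjusted p under 0.05). Lgr5 was the gene below the filter on low counts. Of all 18871 genes tested, 23.4% were lower and 23.5% higher. The median log2 fold change was -1.22 over the 7 genes and -0.01 over all genes. The replicates were differentiated on different days. In bulk RNA, fewer expressing cells and less RNA per cell cannot be told apart.

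Sp5 (ENSMUSG00000075304, chr2:70474923-70477729), a transcription factor of the Sp family, was at 18.2, 25.8 and 20.8 CPM (counts scaled to library size) in the 3 TX1072 libraries at day 0 and at 0.0291, 0 and 0.0607 CPM at day 1. All day 1 libraries together held 3 counts against 1815 at day 0, a ratio of 761 with a counting interval from 260 to 3695 (95%, exact, counting error only). The groups were far apart, and the edgeR adjusted p was 3.39e-10. Sp5 stayed at 0.0381, 0.0286 and 0 CPM at day 2, and read 1.47, 0.163 and 0.569 CPM at day 3, above every library of days 1 and 2. At day 4 the libraries were at 18.99, 12.5 and 12.7 CPM, which overlapped the day 0 range. The mean at day 4 was 68.2% of that at day 0, and the change from day 0 was -0.55 ± 0.30 on the log2 scale (SE, n = 3, edgeR adjusted p = 0.118). Without replicate 1 in the fit this change was -0.89 and passed the test (edgeR adjusted p = 0.0132), and it also passed without the filter on low counts (-0.54, edgeR adjusted p = 0.0122).

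Cdx1 (ENSMUSG00000024619, chromosome 18), a homeobox factor of posterior patterning, fell as early as Sp5 but did not come back. It measured 34.1, 50.4 and 62.4 CPM at day 0 in TX1072 and 1.43, 1.38 and 0.82 CPM at day 1 (log2 fold change -5.32 ± 0.30 SE, n = 3, edgeR adjusted p = 1.38e-10). At day 4 it was at 1.196, 1.68 and 1.44 CPM, 2.94% of the day 0 mean. This was higher than at day 3 by 2.63 ± 0.44 on the log2 scale (edgeR adjusted p = 0.000257), a rise from at most 0.395 CPM in any day 3 library. Day 4 and day 1 could not be distinguished (log2 difference 0.24, 95% interval -0.42 to 0.91, edgeR adjusted p = 0.533).

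Axin2 (ENSMUSG00000000142, chr11:108920349-108950783) fell more slowly. The TX1072 libraries held 44.9, 59.3 and 49.5 CPM at day 0, 26.8, 33.2 and 29.3 CPM at day 1 and 8.72, 6.68 and 8.13 CPM at day 2. The log2 fold change was -0.78 ± 0.15 at the first step (SE, n = 3, edgeR adjusted p = 0.000246) and -1.93 ± 0.16 at the second (edgeR adjusted p = 2.57e-08), with no overlap between neighbouring days. The gene then rose at both later steps, to 18.4, 13.4 and 14.4 CPM at day 3 (0.98 ± 0.16, edgeR adjusted p = 0.000144) and 46.5, 55.7 and 43.1 CPM at day 4 (1.65 ± 0.15, edgeR adjusted p = 6.36e-07). From the highest to the lowest mean, the order of days was 0, 4, 1, 3 and 2. Days 0 and 4 overlapped, and their difference was -0.08 (95% interval -0.39 to 0.23, edgeR adjusted p = 0.658).

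Notum (ENSMUSG00000042988, chr11:120653788-120661175) fell at days 1 and 2 as Axin2 did, but fell further at day 3 and returned little. It measured 36.3, 57.9 and 55.2 CPM at day 0, 26.1, 30.3 and 25.5 CPM at day 1, 3.08, 1.51 and 1.58 CPM at day 2, and 0.789, 0.543 and 0.821 CPM at day 3. The first step (-0.86 ± 0.20, SE, n = 3, edgeR adjusted p = 0.00196) was lost without replicate 3 (edgeR adjusted p = 0.0687), whereas the second was -3.76 ± 0.24 (edgeR adjusted p = 1.88e-09). From day 2 to day 3 the change was -1.45 ± 0.31 (edgeR adjusted p = 0.00199). Day 4, at 3.11, 4.32 and 3.42 CPM, was above day 3 in every library (2.29 ± 0.29, edgeR adjusted p = 2.07e-05) and at 7.26% of the day 0 mean.

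Tcf7 (ENSMUSG00000000782, chr11:52252371-52283014) and Nkd1 (ENSMUSG00000031661, chr8:88521354-88594884) had their lowest values at day 1 and ended above day 0. Tcf7 was at 31.7, 31.0 and 41.0 CPM at day 0, at 13.2, 11.7 and 13.6 CPM at day 1 (-1.43 ± 0.15, SE, n = 3, edgeR adjusted p = 4.14e-07) and at 43.6, 49.0 and 45.6 CPM at day 4. Its rise over day 0 was 0.42 ± 0.15 (edgeR adjusted p = 0.0205), with no overlap, and was lost without replicate 1 (edgeR adjusted p = 0.0883) or without replicate 2 (edgeR adjusted p = 0.116). Nkd1 was at 2.19, 1.89 and 1.93 CPM at day 0, at 0.699, 1.19 and 0.668 CPM at day 1 (-1.22 ± 0.24, SE, n = 3, edgeR adjusted p = 0.000385) and at 4.24, 3.97 and 3.39 CPM at day 4 (0.94 ± 0.22 over day 0, edgeR adjusted p = 0.00118).

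Lef1 (ENSMUSG00000027985, chr3:131110471-131224356) moved the other way. It was the only one of the 7 tested genes that rose at day 1 in TX1072, from 4.79, 6.97 and 6.25 CPM to 51.9, 47.5 and 47.5 CPM (3.04 ± 0.19, SE, n = 3, edgeR adjusted p = 4.21e-10). It reached 77.2, 60.7 and 102 CPM at day 2 (0.71 ± 0.17 over day 1, edgeR adjusted p = 0.00245, lost without replicate 3 with an edgeR adjusted p of 0.119). It then fell to 27.9, 21.2 and 24.5 CPM at day 3 and 9.53, 12.2 and 12.1 CPM at day 4, the days on which Sp5 and Axin2 rose. At day 4 it was still above day 0 by 0.92 ± 0.18 (edgeR adjusted p = 0.000293).

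Lgr5 (ENSMUSG00000020140, chr10:115450311-115587780) was near the limit of the bulk data. The TX1072 libraries held 1, 0 and 0 counts at day 0 and 20, 8 and 10 counts at day 4, every day 4 library above all earlier ones. The group sums of 38 counts at day 4 and 2 at day 1 give a ratio of 21.8 with a counting interval from 5.62 to 186.

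**Figure D1:**
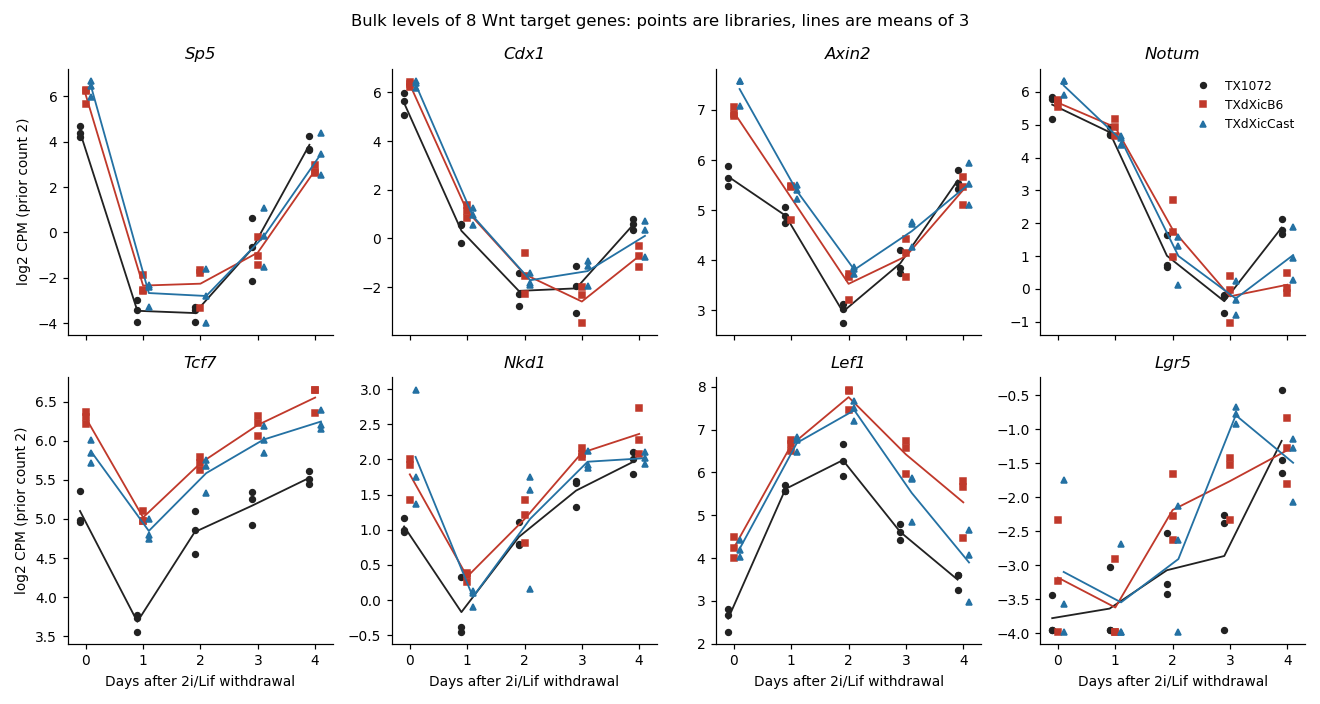
Bulk log2 CPM (prior count 2, vertical axis) of the 8 genes against days after 2i/Lif withdrawal, with 1 point per library and lines through the means of 3 libraries per line and day. Sp5 dropped to near 0 CPM at days 1 and 2 and was at 12.5 to 18.99 CPM at day 4 in TX1072, while Lef1 had its highest mean at day 2 in all 3 lines.

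Per kilobase of exon, the level of the 8 genes in TX1072 changed order over the 4 days. At day 0 Cdx1 (28.0 CPM per kilobase), Notum (20.7), Tcf7 (13.2), Sp5 (10.3) and Axin2 (9.30) led, and Lef1 was at 0.683. At day 2 Tcf7 (10.96 CPM per kilobase) and Lef1 (9.09) led and Axin2 was at 1.42. At day 4 the leading levels were those of Tcf7 (17.5 CPM per kilobase), Axin2 (8.79) and Sp5 (7.01), with Cdx1 at 0.823. The exon length is that of the merged annotated exons, so neighbours in these orders may change with the isoform used.

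Comparing day 4 with day 1 in TX1072, 4 of 7 genes were higher (Sp5, Axin2, Tcf7 and Nkd1), 2 were lower (Lef1 and Notum) and Cdx1 did not pass the test. Over all genes, 30.7% were higher and 28.1% lower in this comparison. Against day 0, day 4 had 3 higher (Lef1, Nkd1 and Tcf7) and 2 lower genes (Cdx1 and Notum), where the background was 30.2% higher and 29.4% lower. Of the single steps, day 2 against day 1 had 3 lower and 3 higher genes (background 18.9% and 20.3%), day 3 against day 2 had 2 lower and 3 higher (12.9% and 13.8%), and day 4 against day 3 had 1 lower and 4 higher (11.9% and 16%). These comparisons share libraries and are not independent of each other. The rise of Nkd1 from day 2 to day 3 was lost without the filter on low counts (0.67, edgeR adjusted p = 0.0702). It was also lost without any 1 replicate (0.54 to 0.75, edgeR adjusted p = 0.0568 to 0.288).

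The deletion lines show the course without the Xist region on the B6 or the Cast allele. Their libraries were made with a different kit and sequenced on another instrument than those of TX1072. The 2 lines were therefore compared with each other but not tested against TX1072. Whether the course depends on the Xist region was not tested. The day 0 libraries of TXdXicCast came from degraded RNA with milder fragmentation. Their mitochondrial share was 0.135% to 0.32%, against 1.38% to 2.15% on the other days of TXdXicCast and 0.69% to 1.64% at day 0 in TXdXicB6. Every change against day 0 in TXdXicCast therefore cannot be told apart from RNA quality. At day 1, 6 of 8 genes were lower and Lef1 was higher in both TXdXicB6 (background 21.8% lower, 23.9% higher) and TXdXicCast (28.3% lower, 30.6% higher), and Lgr5 did not pass the test. In TXdXicB6 the fall of Notum was borderline (-0.74 ± 0.31, SE, n = 3, edgeR adjusted p = 0.0494) and was lost with DESeq2, with TMM factors over autosomal genes, and without replicate 1 or 2. Sp5 went from 77.7, 74.6 and 50.7 CPM to 0.108, 0.208 and 0.102 CPM in TXdXicB6, and from 103, 63.2 and 86.2 CPM to 0.125, 0.138 and 0.0387 CPM in TXdXicCast. The groups were separated in both lines, with ratios of 491 (counting interval 281 to 951) and 815 (413 to 1889).

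In the deletion lines Sp5 and Axin2 stayed below day 0 at day 4, and the difference from TX1072 was not tested. Sp5 at day 4 was at 6.26, 7.73 and 6.01 CPM in TXdXicB6, 9.85% of day 0, and at 10.8, 5.63 and 21.0 CPM in TXdXicCast, 14.9% of its day 0 level from degraded RNA. Axin2 fell from 117, 134 and 122 CPM at day 0 to 13.1, 12.6 and 9.15 CPM at day 2 in TXdXicB6, and read 44.2, 50.3 and 34.1 CPM at day 4, which is 34.6% of day 0. In TXdXicCast it fell from 192, 136 and 191 CPM to 14.2, 13.2 and 14.6 CPM and reached 45.6, 34.4 and 61.7 CPM, 27.3% of day 0. Day 4 remained below day 0 for Sp5 (-3.34 ± 0.37 in TXdXicB6 and -2.74 ± 0.36 in TXdXicCast, SE, n = 3, edgeR adjusted p = 1.1e-08 and 1.44e-07) and for Axin2 (-1.53 ± 0.21 and -1.87 ± 0.21, edgeR adjusted p = 3.15e-07 and 7.86e-09). Axin2 at day 4 did not differ detectably from day 1 in TXdXicB6 (0.15, 95% interval -0.27 to 0.57) or TXdXicCast (0.18, 95% interval -0.24 to 0.60), although it rose over day 3 in both (1.31 ± 0.21 and 0.96 ± 0.21, edgeR adjusted p = 8.38e-05 and 0.00143).

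At day 4 against day 1, TXdXicB6 had 4 higher (Sp5, Tcf7, Nkd1 and Lgr5) and 3 lower genes (Lef1, Notum and Cdx1), with a background of 27.9% higher and 28.7% lower. TXdXicCast had the same 4 higher genes and 2 lower genes (Lef1 and Notum), with a background of 29.3% higher and 30.1% lower. Lgr5 had 0, 2 and 0 counts at day 1 in both lines, and 9, 18 and 9 at day 4 in TXdXicB6 and 19, 4 and 13 in TXdXicCast. It passed the filter on low counts through the later days, so that its call as higher is partly set by the filter. Cdx1 in TXdXicCast gave -0.67 ± 0.30 (SE, n = 3, edgeR adjusted p = 0.0541), and with the replicate number as a block it passed (edgeR adjusted p = 0.0338). Lef1 had its highest mean at day 2 in both lines, at 238, 245 and 175 CPM in TXdXicB6 and 204, 181 and 147 CPM in TXdXicCast. By day 4 it was at 50.3, 55.3 and 21.96 CPM in TXdXicB6 and 25.2, 16.7 and 7.73 CPM in TXdXicCast. The step of Lef1 from day 1 to day 2 in TXdXicCast was 0.77 ± 0.31 (edgeR adjusted p = 0.0506) and passed with the block (edgeR adjusted p = 0.00872). Day 4 against day 0 had 4 lower and 3 higher genes in TXdXicB6 (background 29.5% and 30%) and 4 lower and 2 higher in TXdXicCast (33.6% and 36.2%). Of the steps, day 2 against day 1 had 3 lower and 2 higher in both lines (background 16.8% and 16% in TXdXicB6, 18.3% and 17.6% in TXdXicCast). Day 3 against day 2 had 3 lower and 3 higher in TXdXicB6 (12.2% and 13.3%) and 2 lower and 4 higher in TXdXicCast (13% and 14.4%). Day 4 against day 3 had 1 lower and 4 higher in both (7.49% and 8.43% in TXdXicB6, 8.89% and 10.2% in TXdXicCast). Leaving out 1 replicate lowered counts in both lines for day 3 against day 2, day 4 against day 3 and day 4 against day 0. The ranges are given in the last section. In TXdXicB6 the rise of Axin2 from day 2 to day 3 was lost without any 1 replicate (edgeR adjusted p = 0.0755 to 0.281). The block also brought 4 further steps past the test, namely Nkd1 from day 1 to 2 and from day 0 to 4 in TXdXicB6 (edgeR adjusted p = 0.0254 and 0.0493) and Nkd1 from day 2 to 3 and Tcf7 from day 3 to 4 in TXdXicCast (edgeR adjusted p = 0.0441 and 0.0265).

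Tested directly, the change from day 0 to day 1 did not differ past the threshold between the deletion lines for any of the 8 genes, where 4.6% of all genes did (edgeR, with 1 of the 8, Notum, at an unadjusted p under 0.05, and 0 called by DESeq2). At day 0, line and RNA quality cannot be told apart. The change from day 1 to day 4, which does not use the day 0 libraries, differed in 0.749% of all genes and in none of the 8 (edgeR, with 3 at an unadjusted p under 0.05, and 0 called by DESeq2). The 3 with an unadjusted p under 0.05 were Notum (1.46 ± 0.52, TXdXicCast minus TXdXicB6, SE, edgeR adjusted p = 0.229), Lef1 (-1.41 ± 0.44, edgeR adjusted p = 0.152) and Cdx1 (1.21 ± 0.44, edgeR adjusted p = 0.254), and Sp5 gave 1.37 ± 1.335 (edgeR adjusted p = 0.8). With the replicate block Lef1 passed (-1.43, edgeR adjusted p = 0.0172). Genes were also called in both direct tests without the filter on low counts, and from day 1 to day 4 without replicate 3. Their numbers are given in the last section.

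**Figure D2:**
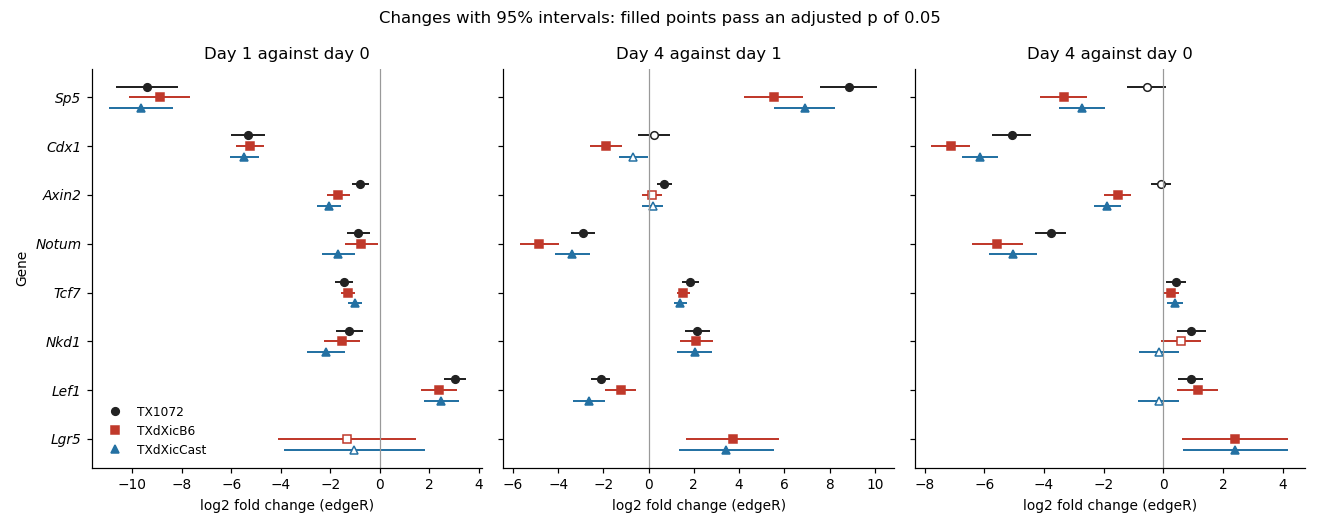
Log2 fold changes (horizontal axis, edgeR) of the 8 genes between days in TX1072, TXdXicB6 and TXdXicCast, filled where the adjusted p is under 0.05. The 95% intervals are approximate, since they are derived from each change and its F statistic, and can be too narrow near 0 counts. From day 0 to day 1 Lef1 is the only gene to the right of 0 past the test, and from day 0 to day 4 Sp5 and Axin2 are below 0 past the test in the deletion lines but not in TX1072.

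In single TX1072 cells, the retained cells numbered 277, 325, 341, 257 and 272 at days 0 to 4, with a median of 138565, 124651, 125591, 130377 and 171158 unique molecular identifiers (UMIs) per cell. The day 1 libraries alone were sequenced in a second, rapid run with other read lengths, the tables give 1 value per cell that does not name the run, and the part of this in values at day 1 was not tested. With 1 culture per day there is no test, and the intervals given cover counting error only. Sp5 summed to 2316 UMIs at day 0 (59.2 CPM, 95% Poisson interval 56.8 to 61.6), 1 UMI at day 1 and 2778 UMIs at day 4 (61.1 CPM, 58.9 to 63.5). It was detected in 73.3% of cells at day 0 (exact interval 67.7% to 78.4%), in 1 of 325 at day 1, in 2.64% at day 2, in 7.39% at day 3 and in 50.7% at day 4 (44.6% to 56.8%). Thinned to 40000 UMIs per cell, the shares at days 0 and 4 were 59.6% and 39.3%. The intervals of the pooled level at days 0 and 4 overlapped, and the level lay in fewer cells at day 4. These cells came from the population of bulk replicate 1, where Sp5 was at 18.2 CPM at day 0 and 18.99 CPM at day 4. In bulk replicates 2 and 3 Sp5 went from 25.8 and 20.8 CPM at day 0 to 12.5 and 12.7 CPM at day 4. The tenth of cells with the most Sp5 UMIs held 39.5% of them at day 0 and 67.7% at day 4, and the highest single cell had 64 and 181 UMIs.

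Axin2 fell and rose in the share of cells as it did in level. It was detected in 54.5%, 37.8%, 17.9%, 27.6% and 52.2% of cells at days 0 to 4, and its pooled level was 28.4, 19.2, 5.96, 12.9 and 33.3 CPM. Cdx1 was found in 75.5% of cells at day 0, against 4.62% after 1 day and 6.25% after 4 days. The share of cells with Notum was 42.6% before withdrawal, 28.9% after 1 day and 1.47% after 2 days. Tcf7 was in 60.3% of cells before withdrawal, 33.8% after 1 day and 74.6% after 4 days. Lef1 was in 21.7% of cells at day 0, in 79.1% at day 1 and 78.0% at day 2, and in 24.3% at day 4. The tenth of cells with the most Lef1 UMIs held 88.4% of them at day 0, 38.8% at day 2 and 89.0% at day 4, and the highest single cell had 59, 93 and 195 UMIs.

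Nkd1 in single cells did not show the fall seen in bulk. It had 48 UMIs at day 0 (1.23 CPM, 0.904 to 1.63) and 60 at day 1 (1.45 CPM, 1.11 to 1.86), and rose to 4.56 CPM (3.96 to 5.22) at day 4. Without 1 capture column the day 4 value was 2.01 CPM, and without 1 of the day 1 columns the day 1 value was 0.781 CPM, so these levels rest on few cells. Lgr5 was in 14.1% of cells at day 0 and 31.2% at day 4 (4.33% and 11.03% after thinning), but most of its UMIs were unspliced, with 56 unspliced and 0 spliced at day 0, and 264 unspliced and 48 spliced at day 4.

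**Figure D3:**
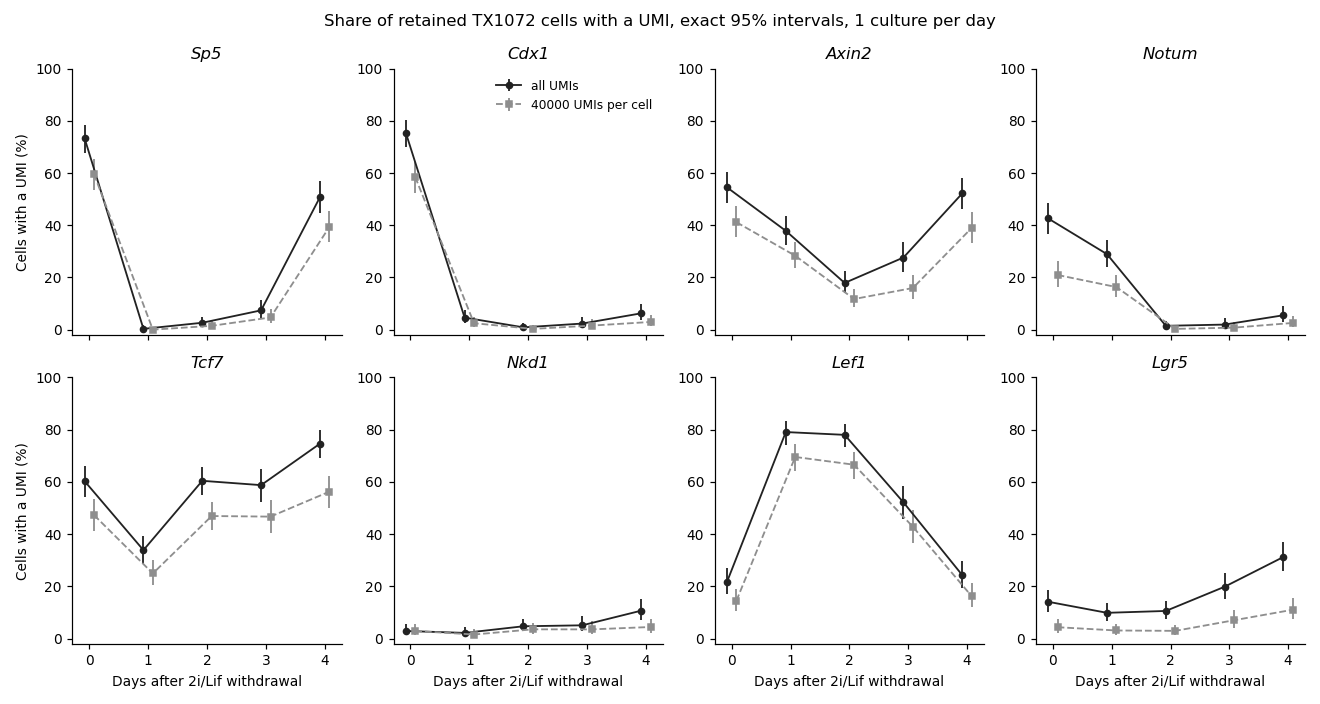
Share of retained TX1072 cells with at least 1 UMI (vertical axis, percent) against days after 2i/Lif withdrawal, for all UMIs (black) and for cells thinned to 40000 UMIs (grey), with exact 95% intervals. Sp5 and Cdx1 leave nearly all cells by day 1, and Sp5 but not Cdx1 is back in 50.7% of cells at day 4.

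Cells with Sp5 and cells with Axin2 at day 4 overlapped in part. Of the 272 cells, 138 had Sp5, 142 had Axin2 and 88 had both. Axin2 was found in 63.8% of cells with Sp5 and in 40.3% of those without. T, the primitive streak factor Brachyury and itself a Wnt target, was in 64.5% of cells with Sp5 and 48.5% of cells without. Lef1 was in 24.6% and 23.9%, and Notum, found in 15 cells, was in 2.9% and 8.21%. Cells with Sp5 were deeper (median 182336 against 162788 UMIs), and the part of depth in these shares was not tested. At day 0 the difference for Axin2 was smaller, 57.1% against 47.3%, at 139568 and 136106 UMIs.

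The unspliced share of Axin2 did not follow its level over the days. Its unspliced UMIs numbered 90 at day 0 and 7 at day 1, while its spliced UMIs numbered 1100 and 794. The unspliced share went from 7.56% (exact interval 6.13% to 9.22%) to 0.874% (0.352% to 1.79%), against 10.7% and 13.3% over all genes, and the part of the extra sequencing run of day 1 was not tested. At day 2, when the level was lowest, it was 6.49% (3.83% to 10.2%), with 17 unspliced and 245 spliced UMIs. It was 2.82% (1.47% to 4.88%) at day 3 and 1.05% (0.604% to 1.71%) at day 4, with 16 unspliced and 1502 spliced UMIs at the latter. Lef1 UMIs were 45.1% unspliced at day 0 and 44.3% unspliced at day 1, when the unspliced number went from 369 to 3270. Sp5 is listed at 0 in the spliced and unspliced tables at days 0 to 3 and at 2786 spliced UMIs at day 4, although the main table holds 2316 UMIs at day 0. At day 0, 69 of 7779 genes with at least 500 UMIs are listed at 0 in this way, so no spliced value of Sp5 was used.

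Allele shares differed among the targets. Of 6 genes with at least 20 allele-specific counts in every TX1072 day 0 library, Notum, Cdx1 and Lef1 had a B6 share outside 40% to 60% and Axin2, Sp5 and Tcf7 a share within it, whereas autosomal genes together gave 50.5% to 51.4% over the 45 libraries. Notum came to 90.8% ± 0.15 (SD, n = 3) from B6 at day 0 and 95.9% ± 1.67 at day 1 in TX1072, and the values were 86.6% ± 1.79 and 94.0% ± 0.88 in TXdXicB6 and 89.5% ± 1.28 and 95% ± 2.25 in TXdXicCast. By day 4 Notum had libraries with under 20 allele-specific counts in each line, and its summed counts were 50 from B6 and 20 from Cast in TX1072, 29 and 14 in TXdXicB6, and 50 and 38 in TXdXicCast. Cdx1 was at 63.2% ± 1.02 at day 0. Sp5 was at 51.9% ± 2.00 at day 0 and 67.0% ± 5.06 at day 4 in TX1072, at 47.5% ± 4.05 and 63.4% ± 8.12 in TXdXicB6, and at 46.8% ± 1.66 and 60.6% ± 4.93 in TXdXicCast, and the ranges of these days did not overlap in any line. Axin2 was at 49.9% ± 3.02 at day 0 and 59.4% ± 3.51 at day 1 in TX1072, and it was higher at day 1 in the deletion lines too, at 45.7% ± 1.55 and 56.7% ± 4.27 in TXdXicB6 and 46.3% ± 0.41 and 55.1% ± 2.91 in TXdXicCast. The Axin2 ranges of days 0 and 1 did not overlap in any of the 3 lines. In TXdXicB6, day 0 replicate 1 had few allele-specific counts, and it weighs equally in these means. For Sp5 it had 45 from B6 and 60 from Cast, against 442 and 457 in replicate 2. Sp5 counts in all were 1904 and 2234 in these libraries. Replicate 1 gave the lowest Sp5 share of that day (42.9%). In TX1072, Lef1 was at 28.5% ± 11.5 before withdrawal, 53.1% ± 2.73 after 1 day and 34.5% ± 7.86 after 4 days. No test was run on these shares. Mapping bias at single genes was not tested.

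**Figure D4:**
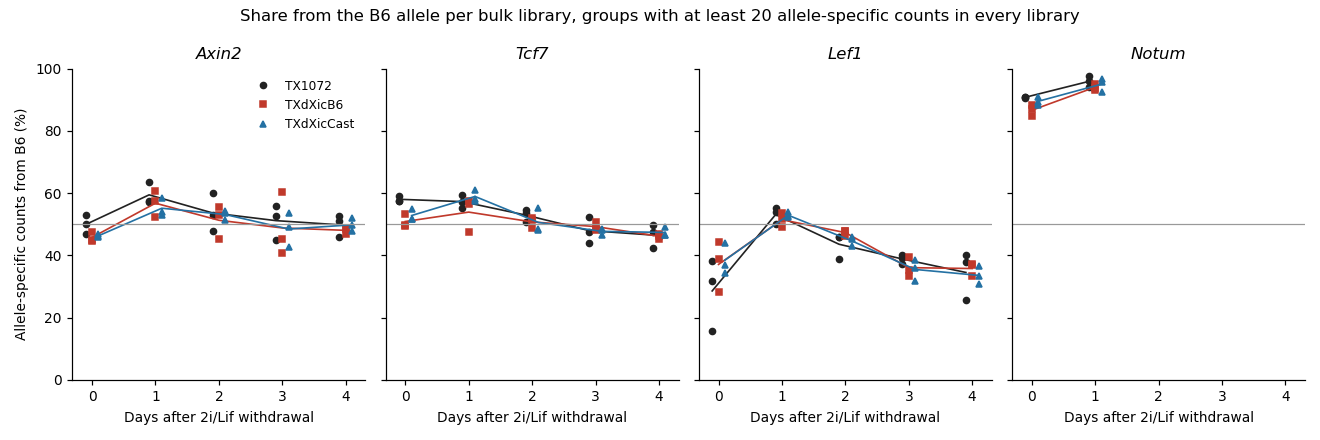
Percent of allele-specific counts from the B6 allele (vertical axis) against days after 2i/Lif withdrawal in the 3 lines, with 1 point per bulk library and lines through means, for groups with at least 20 allele-specific counts in every library. Notum lies between 84.7% and 97.5% at days 0 and 1, and Axin2 is higher at day 1 than at day 0 in each line.

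Of the 19 genes for Wnt ligands, 15 passed the filter on low counts in TX1072, some of them only through the days on which they were high, so that the counts of rises describe these 15 and are partly set by the filter. Of the 15, 8 were higher and 3 lower at day 1 than at day 0 (background 23.5% and 23.4% of all genes). Between day 1 and day 4 the background was 30.7% higher and 28.1% lower, and 14 ligands were higher and 0 lower at day 4 than at day 1 (13 to 15 higher and 0 to 1 lower over the alternatives). Wnt8a, a ligand of the early streak, was at 0.0271, 0.379 and 0.045 CPM at day 0, 5.30, 3.86 and 3.07 CPM at day 1, 43.7, 34.2 and 31.1 CPM at day 2 and 68.5, 63.7 and 57.9 CPM at day 4. It rose before Sp5 returned, by 4.81 ± 0.42 at the first step (SE, n = 3, edgeR adjusted p = 3.45e-08). Wnt3, needed for streak formation, was at 0.146, 0.148 and 0.121 CPM at day 1, 3.35, 2.77 and 3.11 CPM at day 2, and 39.1, 37.5 and 36.8 CPM at day 4 (8.04 ± 0.32 over day 1, edgeR adjusted p = 9.07e-13). Porcn, which attaches the lipid to Wnt, rose at day 1 (2.24 ± 0.17, edgeR adjusted p = 5.31e-09) and fell by day 4 (-2.10 ± 0.17, edgeR adjusted p = 5.27e-09). Wls, which carries Wnt to the surface, went down at day 1 (-1.18 ± 0.12, edgeR adjusted p = 3e-07) and up by day 4 (3.14 ± 0.13, edgeR adjusted p = 1.3e-12).

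Other Wnt targets did not move as 1 group. Of 14, 9 were lower and 4 higher at day 1, against a background of 23.4% and 23.5%, and 8 were higher and 4 lower at day 4 than at day 1, against 30.7% and 28.1%. The lower ones included T (-5.13 ± 0.41, SE, n = 3, edgeR adjusted p = 1.14e-08), Tnfrsf19, a receptor of the tumor necrosis factor family (-1.78 ± 0.16, edgeR adjusted p = 5.7e-08), and Apcdd1, an inhibitor at the membrane (-1.56 ± 0.13, edgeR adjusted p = 2.91e-08). The higher ones included the proliferation genes Myc (3.12 ± 0.28, edgeR adjusted p = 6e-08) and Ccnd1 (1.65 ± 0.12, edgeR adjusted p = 5.27e-09), and Ascl2 (2.79 ± 0.24, edgeR adjusted p = 3.48e-08). Apcdd1 fell further by day 4, while T (8.59 ± 0.42, edgeR adjusted p = 9.12e-12) and Tnfrsf19 (1.81 ± 0.16, edgeR adjusted p = 2.3e-08) rose. The 5 naive genes that Tcf7l1 represses were all lower at day 1 (background 23.4%), among them Nanog (-2.28 ± 0.17, edgeR adjusted p = 5.67e-09), and 4 of them fell further by day 4 (background 28.1%).

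The next 4 groups are read against 23.4% of all genes lower and 23.5% higher at day 1. Among receptors, 7 of 16 were lower and 7 higher, Fzd10 among the lower (-3.00 ± 0.29, edgeR adjusted p = 1.26e-07) and Fzd7 among the higher (2.39 ± 0.16, edgeR adjusted p = 1.42e-09), and without replicate 3 only 4 were lower. Of 9 secreted inhibitors, 3 were lower and 2 higher, near the background shares, with Sfrp1 at -2.30 ± 0.12 (edgeR adjusted p = 3.77e-11). Of 13 genes of the destruction complex and beta-catenin, 5 were lower and 1 higher, with Gsk3b at -1.35 ± 0.14 (edgeR adjusted p = 3.07e-07). Of 10 nuclear partners, 5 were lower and 1 higher, Tle4 (1.81 ± 0.14, edgeR adjusted p = 5.25e-09), and without replicate 3 only 1 was lower.

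**Figure D5:**
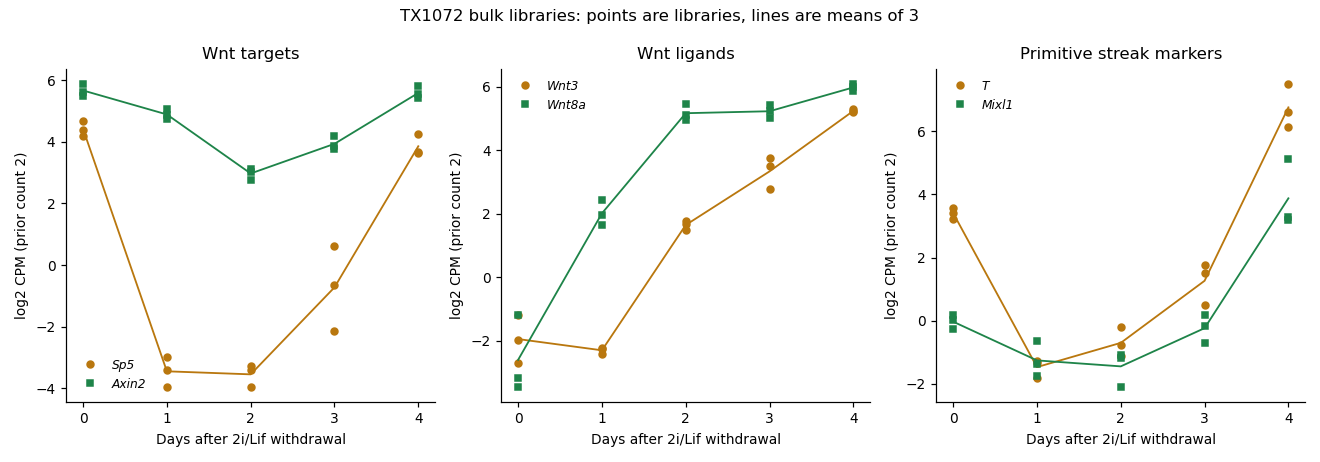
Log2 CPM (prior count 2, vertical axis) in TX1072 bulk libraries against days after 2i/Lif withdrawal for Sp5 and Axin2, the ligands Wnt3 and Wnt8a, and the streak genes T and Mixl1, with points for libraries and lines for means of 3. Wnt8a is at 31.1 to 43.7 CPM at day 2, when Sp5 is at or under 0.0381 CPM.

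The return of Sp5 and Axin2 came with markers of the primitive streak. Of 6 markers, which include the target T, 5 were higher at day 4 than at day 1 in TX1072 and none lower, where 30.7% of all genes were higher and 28.1% lower. Their summed level was 35.6, 37.9 and 33.7 CPM at day 1, most of it Eomes, and 381, 196 and 158 CPM at day 4, where T was the most abundant at 181, 98.4 and 70.3 CPM. None of the 6 was at 0 in a TX1072 library. In TXdXicB6 the sum at day 4 was 89.4, 134 and 103 CPM, and in TXdXicCast it was 79.0, 63.6 and 214 CPM. The part of these cells in the return was not tested. In TX1072, replicate 1 had the highest Sp5 and the highest marker sum at day 4, whereas Axin2 was highest in replicate 2. In TXdXicB6 replicate 2, and in TXdXicCast replicate 3, had the highest Sp5, Axin2 and marker sum. The match was not particular to the streak, since the summed trophoblast markers were highest at day 4 in the same libraries, at 2042 CPM in TX1072 replicate 1, 785 CPM in TXdXicB6 replicate 2 and 2302 CPM in TXdXicCast replicate 3. Krt8 alone gave 1030, 381 and 1210 CPM of these sums. The summed extraembryonic endoderm markers were also highest in the same library of TXdXicB6 (34.7 CPM) and of TXdXicCast (64.1 CPM). Pluripotency markers summed to 873, 926 and 966 CPM at day 4 and 3246, 3305 and 3783 CPM at day 0 in TX1072, with Pou5f1 the most abundant at day 4. Of the markers of other types, 4 of 6 for extraembryonic endoderm were higher at day 4 than at day 1 in TX1072 and 1 was lower (0 lower without replicate 2). For trophoblast 4 of 5 tested were higher, with Krt8 at 8.27 ± 0.30 (log2, edgeR adjusted p = 3.11e-13). The 1 lower was Gata3 (-1.46 ± 0.29, edgeR adjusted p = 0.00031). For formative epiblast 2 of 5 were higher (1 without replicate 3) and 2 lower, and for neural cells 1 of 4 tested was higher and 2 lower (1 without replicate 1 or 2), all against the same background of 30.7% higher and 28.1% lower. At day 1 against day 0 all 5 formative markers were higher (background 23.5%).

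The genes most like each of 3 members over the 15 TX1072 libraries were ranked by Pearson's r of log2 CPM among 11863 genes with a mean of at least 100 counts. The libraries share days, so r describes a like course over the days. For Sp5 these were Rcan1 (r = 0.99), Tnfrsf19 (0.98), Ralb (0.98), Efr3a (0.98) and Tgfbr3 (0.97), with r between 0.89 and 0.96 over the 30 deletion-line libraries. For Axin2 they were Mgat4b (0.99), Cemip (0.98), Tmem185a (0.98), Atp10d (0.97) and Cdc42ep1 (0.97), with r between 0.72 and 0.93. For Lef1 they were Plk3 (0.97), Phf21a (0.97), Trp73 (0.97), Pla2g10 (0.97) and Gclm (0.97), with r between 0.86 and 0.96.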

How the data were processed

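Bulk RNA-seq covered TX1072, TXdXicB6 and TXdXicCast at 5 days with 3 replicates, and single-cell RNA-seq covered TX1072 at the same days. The authors aligned reads with STAR 2.5.2b to mm10 with SNP positions masked and deposited raw counts per gene (featureCounts for bulk, unique UMIs for cells), in all, per allele, and for UMIs in exons alone (spliced) or overlapping introns (unspliced). The 75 spike-in rows were left out. The 8 genes, the other lists and the tests were chosen with earlier results of these data known. edgeR 4.0.16 was fitted to all 15 TX1072 libraries and, separately, to all 30 deletion-line libraries (TMM, filterByExpr, quasi-likelihood test, Benjamini-Hochberg over 18871 and 19885 genes, no block). CPM uses TMM-scaled library sizes. The SE of a log2 fold change was derived from the change and its quasi-likelihood F statistic, and its 95% interval from that SE. Both are approximate and can be too narrow where a group is near 0 counts, as for Sp5 at days 1 and 2. On simulated counts for the day 1 against day 0 comparison, edgeR recovered 76% of 2-fold and 95% of 4-fold changes in the TX1072 design, with 6.04% of calls false, and 77% and 98% in the deletion-line design, with 4.37% false. The simulation altered 100 genes per size of change, none of them at low counts, balanced up and down and without replicate effects. In the real TX1072 comparison 23.4% of genes were lower and 23.5% higher, so these rates describe the simulation only.

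Cells listed as retained by the study (1472 of 2000 capture sites) were used. The study removed sites with several cells by imaging, and no doublet caller was run. The 40 row barcodes are shared by all capture columns by design of the chip. Intervals on single-cell values have 95% confidence and cover counting error only. No per-sample column was left unmapped. Replicates were differentiated on different days, as the study's reporting summary states, so equal numbers pair libraries. In TX1072, deviations from group means correlated with a median r of 0.126 between equal numbers (17 of 30 over 0.1) and -0.068 between other numbers (1 of 60), with 0.198 and -0.102 in TXdXicB6 and 0.145 and -0.114 in TXdXicCast. Alternatives were DESeq2 1.42.0, its size factors in edgeR, TMM over autosomal genes, no filter, the replicate block, each replicate left out, each deletion line fitted alone, all capture sites, thinned cells, capture columns left out and allele shares adjusted for autosomal genes. For the other lists these were added after the data were seen. Besides the 8 genes, the text names per list up to 3 falls and 3 rises among called genes with a mean of at least 100 counts in TX1072, the 5 genes most like Sp5, Axin2 and Lef1, and cell type markers. Promoters are from RefSeq (GRCm38.p6), and gene coordinates from GENCODE on GRCm38. Allele-specific UMI tables were not used.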

Additional observations from a re-analysis of the deposited data

How the results depend on the processing

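The counts of the 8 genes called in TX1072 kept within 1.5 times in every comparison under every alternative run. With counts this small, that bound can hide the loss or gain of a single gene. Over all lines and comparisons, 16, 15 and 13 single calls were lost without replicates 1, 2 and 3, and 1, 2 and 2 were gained. Without the filter on low counts, the direct test of the deletion lines called 1 gene lower for the first day, and 1 lower and 2 higher for day 4 against day 1, and TXdXicB6 had 4 higher at day 2 against day 1. With the replicate block the direct test called 1 gene, Lef1, lower for day 4 against day 1, and without replicate 3 it also called 1, so its range without a replicate was 0 to 1. The replicate block changed the calls of the single genes named beside their results and no other call. Leaving out each replicate, the counts in TXdXicB6 ranged from 1 to 3 lower and 0 to 2 higher for day 3 against day 2, 0 to 1 lower and 2 to 3 higher for day 4 against day 3, and 1 to 2 higher for day 4 against day 0. In TXdXicCast they ranged from 1 to 2 lower and 2 to 3 higher for day 3 against day 2, 0 to 1 lower and 2 to 4 higher for day 4 against day 3, and 1 to 2 higher for day 4 against day 0. The cause of these changes was not tested. Depth limits Sp5 and Lgr5 at days 1 and 2, where each library of the 3 lines held 0 to 8 counts of either gene.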
